A study of Mus musculus with 18 samples.

Results

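Sdc1, Dkk3, Lingo4 and Cpe were 4 genes, of 23337 in the count table and 15582 with a count, whose transcripts were nearly confined to NKT17 cells of the mouse thymus. They were taken from the table by their symbols and were chosen by that pattern, the level in NKT17 against NKT1 and NKT2 libraries, so their levels in NKT17 cells against NKT1 and NKT2 cells are a description with no test, and the comparison of SKG with WT mice within NKT17 cells is the one that was tested. The data are RNA-seq counts of thymic invariant natural killer T (iNKT) cells from WT mice and from SKG mice, all on the BALB/c background, with no treatment named in the labels and no age given for these samples. SKG mice carry a point mutation of Zap70, a kinase that passes on the signal of the T cell receptor, and WT and SKG animals were bred apart from F2 offspring of a cross of SKG with BALB/cJ, so the genotypes were lines of one cross and not littermates. There were 6 groups of 3 libraries, namely NKT1, NKT2 and NKT17 cells of each genotype. NKT17 cells were sorted by the study as tetramer-binding, ICOS hi cells that lacked CD49 and carried Sdc-1 protein, and NKT2 cells as those without Sdc-1, so the presence of Sdc1 RNA in one sort and its near absence from the other follows a gate and is no finding.

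iNKT cells recognise lipids on CD1d and divide in the thymus into subsets named for the helper T cells they resemble. NKT17 cells carry the IL-23 receptor and secrete IL-17. The 4 genes belong to unrelated families: Sdc1 encodes syndecan-1, a cell-surface proteoglycan that carries heparan sulphate and is widely used as a marker of plasma cells; Dkk3 encodes a secreted glycoprotein of the Dickkopf family, whose other members bind co-receptors of Wnt; Lingo4 encodes a leucine-rich repeat and immunoglobulin-like membrane protein related to LINGO-1 of neurons; and Cpe encodes carboxypeptidase E, which trims basic residues from the ends of peptide hormones in neuroendocrine cells.

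The genes lie on different chromosomes. In build NCBIM37 with the GENCODE M1 annotation, Sdc1 (ENSMUSG00000020592.8) spans chr12:8778129-8800521 on the plus strand, Dkk3 (ENSMUSG00000030772.5) chr7:119259533-119302571 on the minus strand, Lingo4 (ENSMUSG00000044505.3) chr3:94202439-94208423 on the plus strand and Cpe (ENSMUSG00000037852.7) chr8:67071355-67171837 on the minus strand. All are protein-coding, and their counts are over exons, of 3809, 3357, 3645 and 2087 bases in that order. The 250 bases before the RefSeq start of Sdc1 and Lingo4 are shown to give the starts of the genes whose promoters were at hand, with each match of the GC box GGGCGG in capitals.

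Sdc1 promoter, chr12:8771146-8771395 (GRCm38.p6, plus strand): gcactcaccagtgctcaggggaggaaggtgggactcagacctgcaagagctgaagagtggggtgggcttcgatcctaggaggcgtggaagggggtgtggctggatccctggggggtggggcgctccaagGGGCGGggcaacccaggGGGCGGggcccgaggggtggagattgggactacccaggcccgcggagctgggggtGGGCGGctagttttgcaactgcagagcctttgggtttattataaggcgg

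Lingo4 promoter, chr3:94398969-94399218 (GRCm38.p6, plus strand): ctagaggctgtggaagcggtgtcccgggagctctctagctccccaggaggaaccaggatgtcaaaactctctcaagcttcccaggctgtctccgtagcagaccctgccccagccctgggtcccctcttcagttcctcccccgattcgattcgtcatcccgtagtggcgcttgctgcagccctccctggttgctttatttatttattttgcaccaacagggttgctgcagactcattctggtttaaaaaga

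The Sdc1 window was 66.0% G and C and held 3 GC boxes on the gene's strand, which start 121, 104 and 49 bases before the start. A GC box on either strand was present in 32.74% of 32851 RefSeq promoters of that length, and it was added to the motifs after the sequence had been seen. The Lingo4 window was 55.2% G and C and held no GC box. Neither window held AGGTCA, the half-site of many nuclear receptors (14.02% of promoters), the AP-1 letters TGANTCA (6.749%), the STAT letters TTCNNNGAA (7.02%) or TATAAA (12.37%), which says only that these letters are not in these windows. The promoters of Dkk3 and Cpe were not used here. The RefSeq window of Lingo4 matched NCBIM37 at one place, chr3:94202891-94203140, so its RefSeq start lies 702 bases after the start in the annotation.

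Sdc1 was by far the most abundant of the 4 genes, and its level was steady across the NKT17 libraries. In CPM, the counts scaled to a fixed library size and corrected for composition, it was at 427.7, 437.9 and 398.8 in the 3 WT NKT17 libraries and at 427.6, 400.1 and 418.7 in the 3 SKG NKT17 libraries, from 2191 to 3019 counts each. The 6 libraries interleave, and the highest was 1.098 times the lowest. In the other 12 libraries Sdc1 had 1, 1 and 7 counts in WT NKT1, 5, 2 and 1 in SKG NKT1, 6, 0 and 4 in WT NKT2 and 2, 2 and 2 in SKG NKT2, which places each of those 4 groups at 0.0925% to 0.148% of the NKT17 level of its genotype. The plot of all 18 libraries shows the gap of about 3 powers of 10 for Sdc1. For the other genes its size is limited by libraries without a count, so the gaps of the 4 genes cannot be ranked.

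**Figure D1:**
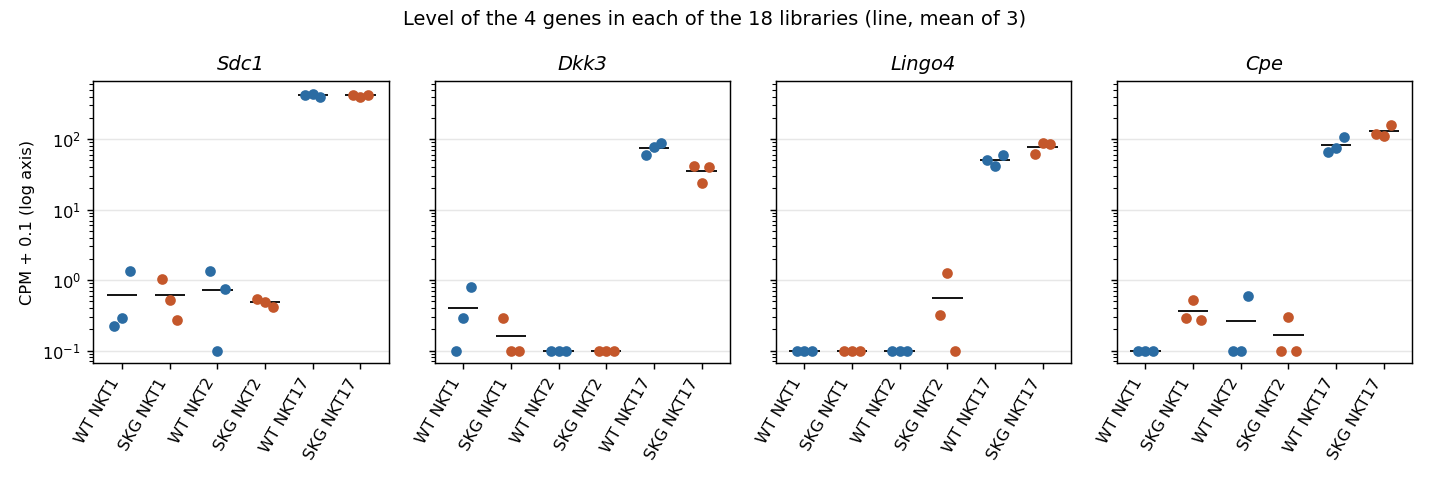
Each point is 1 library (WT blue, SKG orange), the y axis gives CPM + 0.1 on a log scale for Sdc1, Dkk3, Lingo4 and Cpe, and the line is the mean of 3 libraries. The NKT17 libraries lie between 23.73 and 437.9 CPM for the 4 genes, and no library of another group exceeds 1.24 CPM.

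Dkk3 was lower in SKG than in WT NKT17 cells. Its CPM was 59.35, 77.03 and 87.43 in WT NKT17 and 40.94, 23.73 and 40.73 in SKG NKT17, from 136 to 637 counts, and the genotypes did not overlap. In the other libraries it had 0, 1 and 4 counts in WT NKT1, 1, 0 and 0 in SKG NKT1, and none in the 6 NKT2 libraries. Each NKT2 library without a count allows up to 3 counts, here and below for counting error alone, since reads were not marked by molecule.

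Lingo4 was the least abundant per length in WT NKT17 cells. It was at 51.15, 41.56 and 58.47 CPM in WT NKT17 and at 60.63, 88.98 and 84.64 CPM in SKG NKT17, from 239 to 510 counts. Both genotypes lie apart, but only just, since the highest WT library stood at 58.47 and the lowest SKG library at 60.63. Outside NKT17 cells Lingo4 had no count in 10 of the 12 libraries, and 1 and 6 counts in SKG NKT2 replicates 1 and 2.

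Cpe was at 65.01, 73.56 and 106.0 CPM in WT NKT17 and at 116.9, 110.1 and 157.3 CPM in SKG NKT17, from 333 to 838 counts. All SKG libraries lay above all WT libraries, by 110.1 against 106.0 at the nearest point. Outside NKT17 cells no library had more than 3 counts, and WT NKT1 had none.

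Per kilobase of exon, which allows genes to be set against each other, Sdc1 led in WT NKT17 with a mean of 110.7 CPM per kb, followed by Cpe with 39.05, Dkk3 with 22.22 and Lingo4 with 13.82. No neighbours in that order overlapped between libraries, the closest being Dkk3 (lowest library 17.68) and Lingo4 (highest 16.04). In SKG NKT17 the order was Sdc1 (109.1), Cpe (61.37), Lingo4 (21.42) and Dkk3 (10.46), again with no overlap, so Dkk3 and Lingo4 exchanged places.

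The ratio of the mean CPM over the 6 NKT17 libraries to the highest mean of the 4 other groups, with that mean taken as no less than 3 counts at the mean depth (0.5188 CPM), gives the selected pattern in one number. It was 670.3 for Sdc1. For the other 3 the floor was the denominator, as each measured mean lay below it. The mean over both genotypes hides their difference. Dkk3 was at 74.6 CPM in WT and 35.13 CPM in SKG NKT17, and Lingo4 at 50.39 and 78.08 CPM. For the mean over both genotypes the measured ratio was at least 202.0 for Cpe, 123.8 for Lingo4 and 105.7 for Dkk3, which need not hold in each genotype. In the order of these values among the 8619 genes that averaged 50 counts or more over NKT17 libraries they stood at places 2, 6, 15 and 19, but genes at the floor are placed by their abundance in NKT17 cells alone, so the places of Cpe, Lingo4 and Dkk3 do not rank their restriction. The first was Il23r, the IL-23 receptor chain of IL-17-producing cells, at no less than 673.2, and the other genes among the first 10 were Ccr6 (276.2, which rests on its SKG libraries, at a mean of 592.3 CPM against 12.05 CPM in WT), Blk (268.2), Il17re (256.0), Mmp25 (200.9), Hmga2-ps1 (192.0), Ltb4r1 (180.2) and Mycn (at least 175.4). The plot of NKT17 level against the highest other group shows the 4 genes on the left edge, with Sdc1 above the rest.

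**Figure D2:**
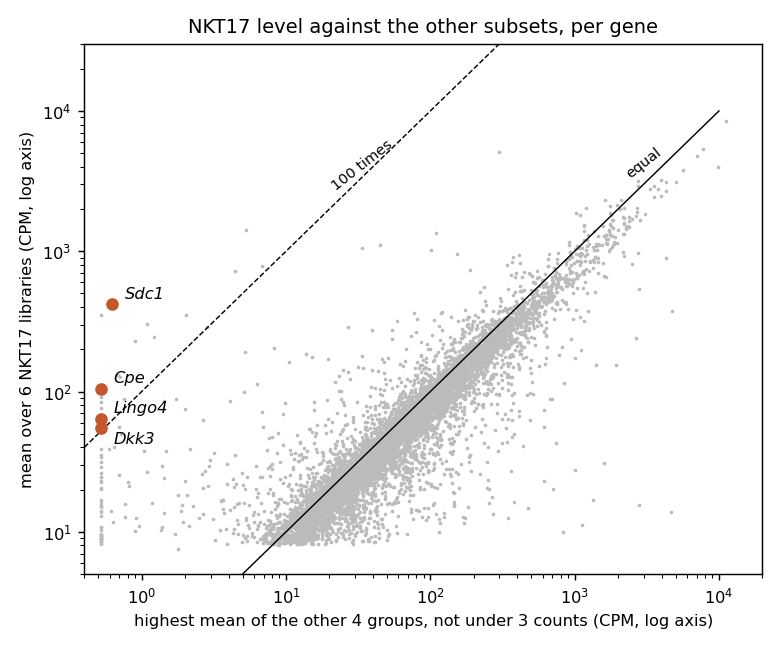
Each grey point is 1 of 8619 genes, with the highest mean CPM among the 4 groups of NKT1 and NKT2 cells on the x axis (never under 3 counts) and the mean CPM of the 6 NKT17 libraries on the y axis, both on log scales. The solid line marks equal levels and the dashed line a ratio of 100, which Sdc1 (670.3), Cpe (202.0), Lingo4 (123.8) and Dkk3 (105.7) exceed.

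The comparison of SKG with WT in NKT17 cells asks whether weaker signalling through Zap70 goes with another level of these genes in the subset that expresses them. To be called, a gene needed a change of at least 1.5-fold and, by edgeR's quasi-likelihood test, a p under 0.1 after Benjamini-Hochberg adjustment over the 11118 tested genes. The calls made up 8.37% of tested genes, 3.83% being higher and 4.54% lower in SKG. Of the 4 genes, 1 was called, and it was lower. Among the 22 genes with an NKT17 ratio of at least 100, these 4 included, 3 were called higher and 7 lower (45.5% in all). As these are bulk samples, fewer cells of a type and less RNA per cell cannot be told apart. The share of all tested genes whose genotypes do not overlap is not given here. A lack of overlap in Dkk3, Lingo4 or Cpe is therefore only a description.

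**Figure D3:**
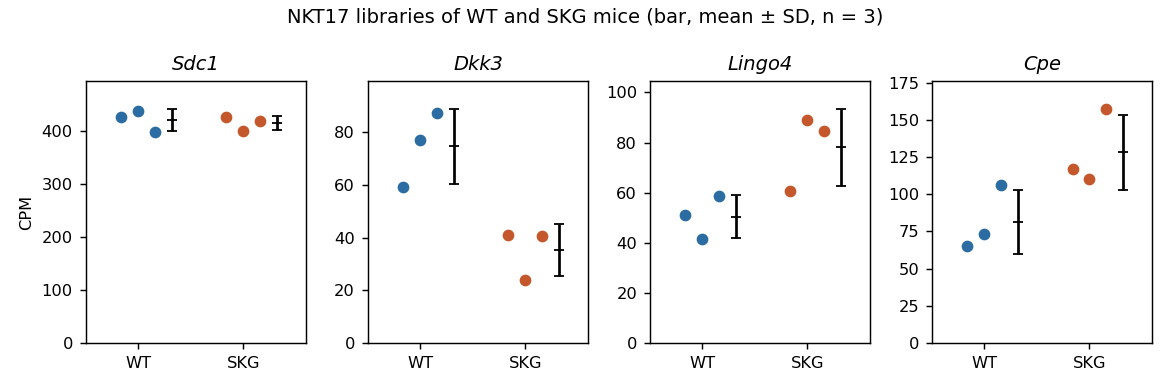
CPM of each gene in the 3 WT (blue) and 3 SKG (orange) NKT17 libraries on linear axes from 0, with the mean ± SD beside the points. Sdc1 overlaps between genotypes (421.5 against 415.5 CPM), and Dkk3 is lower in SKG (74.6 against 35.13 CPM). Lingo4 and Cpe are higher in SKG without overlap, but were not called.

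Dkk3 fell from 74.6 ± 14.2 CPM (SD, n = 3) in WT to 35.13 ± 9.875 CPM in SKG NKT17 cells, or -1.09 on the log2 scale (95% interval -1.77 to -0.4, SE 0.33, adjusted p 0.0441 by edgeR), 2.12-fold lower. An exact permutation test over the 6 libraries gave the smallest p that 3 against 3 allows, 0.1 (two-sided). The call rested on single libraries: the log2 fold change was -1.07 (edgeR adjusted p 0.11) without WT replicate 2, -0.95 (0.175) without WT replicate 3, -0.87 (0.174) without SKG replicate 2 and -1.21 (0.1) without SKG replicate 3, and the gene was not called in any of these 4 fits.

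Sdc1 was at 421.5 ± 20.24 CPM in WT and 415.5 ± 14.07 CPM in SKG NKT17 cells (SD, n = 3), a log2 difference of -0.02 (SE 0.20) with an adjusted p of 0.976 by edgeR. The 95% interval of -0.45 to 0.41 bounds what a difference could be. Its coefficient of variation was 4.803% in WT and 3.39% in SKG, against 16.8% to 28.1% for the other 3 genes. As Sdc-1 protein was a sort gate in both genotypes, cells with little of it were not sampled as NKT17.

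Cpe was at 81.51 ± 21.6 CPM in WT and 128.1 ± 25.51 CPM in SKG NKT17 cells (SD, n = 3). The difference of 0.65 on the log2 scale (95% interval 0.14 to 1.16, SE 0.25) did not pass after adjustment (edgeR adjusted p 0.113), although all 3 SKG libraries lay above the WT libraries (exact permutation p 0.1). The call was gained without WT replicate 3, the highest WT library, at 0.89 (edgeR adjusted p 0.0569).

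Lingo4 was at 50.39 ± 8.479 CPM in WT and 78.08 ± 15.27 CPM in SKG NKT17 cells (SD, n = 3), which is 0.63 on the log2 scale (95% interval -0.05 to 1.31, SE 0.32, adjusted p 0.272 by edgeR; exact permutation p 0.1). It was not called.

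Some titles of the samples share a token, 7_10 or 7_11, between a WT and an SKG library of each subset. Within those 2 pairs of NKT17 libraries the SKG level over the WT level was -0.91 and -1.88 (log2) for Dkk3, 0.54 and 0.61 for Lingo4, 0.67 and 0.06 for Cpe and -0.03 and 0.0 for Sdc1. The labels do not say what the token marks.

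In the subsets where these genes are near the floor no member was called, among 3.27% of tested genes called between genotypes in NKT1 and 7.95% in NKT2. Sdc1 had adjusted p-values of 0.991 and 0.738 by edgeR and Dkk3 had 0.618 in NKT1. Lingo4, with 0 counts in WT and 7 in SKG NKT2, had an adjusted p of 0.113 by edgeR. Over its 12 alternatives that p ran from 0.0337 to 0.506, and Lingo4 was called in the fit without SKG NKT2 replicate 3, which had no count, and with DESeq2 (0.0485). Of the 7 counts 6 were in replicate 2, without which the p was 0.506.

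The strand setting of the counting was not stated, and Gm17179, a transcript annotated on the other strand at chr3:94196893-94206770, overlaps Lingo4 and was not analysed here, so reads from it could not be told from reads of Lingo4.

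Among the neighbours of the 4 genes, Tdrkh, which lies 8795 bases after Lingo4, also stood higher in WT NKT17 cells, with 26.91 CPM against 1.159 CPM in NKT1 and 2.089 CPM in NKT2, and it was at 33.77 CPM in SKG NKT17 (edgeR adjusted p 0.659). Around Sdc1, Pum2 was at 95.89 CPM in WT NKT17, 78.04 CPM in WT NKT1 and 110.5 CPM in WT NKT2. Laptm4a was at 242.4, 221.1 and 184.4 CPM in that order. Beside Dkk3, Usp47 ends 4633 bases away and was at 106.1 CPM in WT NKT17, 123.9 CPM in WT NKT1 and 110.3 CPM in WT NKT2. Beside Cpe, Sc4mol was at 59.17 and 58.32 CPM in WT NKT17 and NKT1. Against NKT2 it was at 0.33 on the log2 scale (edgeR adjusted p 0.29).

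Among the syndecans, Sdc4 shared the restriction of Sdc1 to NKT17 cells. It was at 70.67, 40.69 and 73.02 CPM in WT NKT17 and at 9.916, 21.46 and 16.14 CPM in SKG NKT17, while no library of another group had more than 10 counts. Per kb it stood at 24.13 in WT NKT17, against 110.7 for Sdc1. Sdc3 had the opposite distribution, with 9.102 ± 5.275 CPM in WT NKT1 and 9.478 ± 9.705 CPM in WT NKT2 against 0.2898 ± 0.502 CPM in WT NKT17 (SD, n = 3), and Sdc2 had no count in any library.

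**Figure D4:**
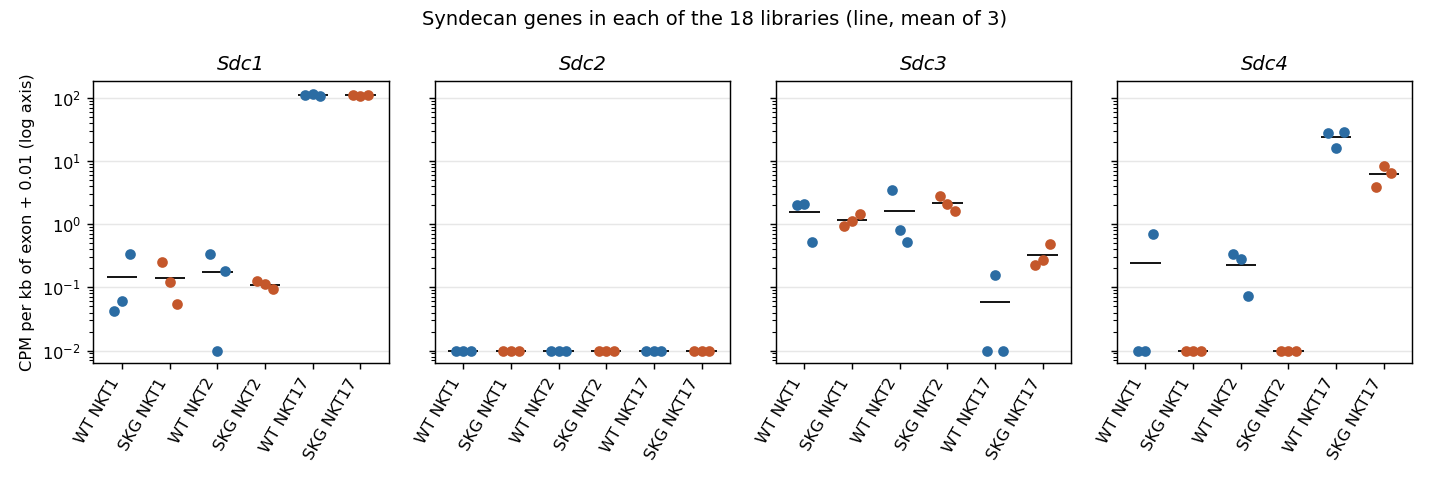
CPM per kb of exon + 0.01 on a log scale for the 4 syndecan genes in each library (WT blue, SKG orange; line, mean of 3). Sdc1 stays at 110.7 and 109.1 in WT and SKG NKT17, Sdc4 is at 24.13 and 6.219, Sdc3 is higher in NKT1 and NKT2, and Sdc2 is at 0 throughout.

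Of the 12 cores of heparan sulphate proteoglycans other than Sdc1 in the list (syndecans, glypicans and others), 4 were expressed enough to be tested. In WT NKT17 against NKT1, where 13.5% of all tested genes were higher and 11.2% lower, 1 of them was higher (Sdc4, log2 6.78) and 2 were lower (Sdc3, -4.93, and glypican-1, Gpc1, -2.51). Against NKT2, where 11% of genes were higher and 8.97% lower, 2 were higher and 1 lower, and the call of Gpc1 (1.14, adjusted p 0.0985) was lost under both other scalings. In SKG NKT17, Sdc4 alone of the 4 was called, lower, at -1.96 on the log2 scale (SE 0.56, edgeR adjusted p 0.045). Over all tested genes 4.54% were lower there. That call of Sdc4 was lost without WT replicate 1 (-1.86, adjusted p 0.137), WT replicate 3 (-1.80, 0.132), SKG replicate 1 (-1.71, 0.179) or SKG replicate 3 (-1.98, 0.152), and with DESeq2 (-1.97, 0.365).

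Of 26 genes that build, sulphate or trim heparan sulphate, the chains that syndecans carry, 20 were tested. In WT NKT17 cells 6 were higher and 5 lower than in NKT1 (13.5% and 11.2% of all tested genes). Against NKT2, 5 were higher and 2 lower (11% and 8.97% of all tested genes), or 3 and 3 under upper-quartile scaling. Among these calls Hs6st1 against NKT1 failed in 4 of 13 alternatives and B3gat3 in 2 of 14, and against NKT2 Ndst1 failed in 7 of 14, Hs6st2 in 5 of 13 and Xylt2 in 3 of 14. Hs2st1, a 2-O-sulphotransferase, was higher against both (log2 1.84 and 1.75). Hs3st1, a 3-O-sulphotransferase, was counted in NKT17 libraries and in no other, at 12.3, 21.39 and 32.94 CPM in WT.

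In SKG NKT17 3 genes of that list were higher and 2 lower (3.83% and 4.54% of all tested genes), with a median log2 fold change of 0.16, against 0.005 over all tested genes. B4galt7, which adds a sugar of the linker between core and chain, rose by 0.94 (edgeR adjusted p 0.00118). Hs3st1 was at 8.924, 3.838 and 4.504 CPM in SKG NKT17, log2 -1.94 (adjusted p 0.0353), and it lost its call without SKG replicate 2 (-1.72, 0.122), WT replicate 3 (-1.53, 0.202) or SKG replicate 3 (-1.80, 0.147). The calls of Hpse, Hs3st3b1 and Hs6st2 in that list also failed when single libraries were left out, where the adjusted p reached 0.145, 0.361 and 0.122.

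Of 14 partners and sheddases of syndecans, 12 were tested. In WT, 4 were higher and none lower in NKT17 than in NKT1 (13.5% and 11.2% of all tested genes), and 6 were higher and 1 lower than in NKT2 (11% and 8.97%). Against NKT2 the calls of Itgav, an integrin chain, and Cask, a scaffold that binds syndecan tails, failed in 7 of 13 and 3 of 12 alternatives, and with libraries of one genotype and token as a block Itgav was at 0.98 (edgeR adjusted p 0.106). Mmp14, a membrane metalloprotease that can shed syndecan-1 from the cell, was higher against both (log2 3.51 and 3.22), and it fell in SKG NKT17 from 76.17 ± 7.975 to 19.01 ± 7.805 CPM (SD, n = 3, log2 -2.00, edgeR adjusted p 0.00085). Sdcbp2, a syntenin that binds syndecan tails, also fell in SKG NKT17 (-1.65, 0.000416), while Igf1r was higher in WT NKT17 than in NKT1 and NKT2 (9.5 and 4.52) and was not called in SKG (-0.39, 0.327). The falls of Mmp14 and Sdcbp2 were the calls of the list in SKG NKT17, 2 lower of 12 tested, against 4.54% of all tested genes. At its low level in NKT2, Mmp14 was also lower in SKG, at 0.8809, 0.3915 and 1.766 CPM against 5.519, 5.243 and 13.42 CPM in WT. In NKT1 it was at 1.115, 2.291 and 3.119 CPM in SKG and 8.572, 6.11 and 5.137 CPM in WT.

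Around Dkk3, 7 of 18 genes of the Dickkopf family and the Wnt receptors were tested, and Dkk1 and Dkk2 had no count in any group. Fzd6, a Frizzled receptor, was higher in WT NKT17 than in NKT1 (log2 1.4) and fell in SKG NKT17 from 27.89 ± 1.052 to 10.24 ± 5.029 CPM (SD, n = 3, -1.45, edgeR adjusted p 0.00531). It was also lower in SKG NKT2, at 7.488, 6.069 and 4.496 CPM against 31.27, 19.22 and 20.37 CPM in WT NKT2. In NKT1 it was at 6.689, 4.582 and 6.93 CPM in SKG and 12.68, 8.02 and 10.8 CPM in WT. Dkkl1, a Dickkopf-like gene, was higher in WT NKT17 than in NKT2 (1.75) and was at 0.67 in SKG against WT NKT17 (adjusted p 0.0892), a call lost in each fit without WT replicate 1 (0.57, 0.277), SKG replicate 1 (0.55, 0.296), SKG replicate 2 (0.69, 0.133), WT replicate 3 (0.44, 0.317) or SKG replicate 3 (0.75, 0.117). The list thus held 1 higher and 1 lower call in SKG, 1 higher against NKT1 and 1 higher against NKT2, among 7 tested genes. Over all tested genes 3.83% were higher and 4.54% lower in SKG, 13.5% higher against NKT1 and 11% higher against NKT2. Single calls among 7 genes are too few to show whether the list differs from all tested genes, which was not tested.

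Of 16 genes of the beta-catenin pathway, 14 were tested. In WT, 3 were higher in NKT17 than in NKT1 and none lower (13.5% and 11.2% of all tested genes), among them Axin2, a feedback gene of the pathway (log2 1.02). Against NKT2, where 11% of all genes were higher and 8.97% lower, Axin2 was higher (1.10) and Lef1 lower (-2.11). In SKG NKT17 1 gene of 14 was called, against 8.37% of all tested genes: Lef1, a transcription factor that acts with beta-catenin, fell from 79.17 ± 10.54 to 8.672 ± 1.448 CPM (SD, n = 3, -3.19, edgeR adjusted p 1.72e-08). Axin2 was at 25.68 and 26.48 CPM (0.05, 0.953), and the median of the list was 0.10. Lef1 was also lower in SKG NKT2, at 162.3, 125.5 and 189.2 CPM against 344.4, 281.2 and 399.1 CPM in WT NKT2. In NKT1 its genotypes overlapped.

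No LINGO gene other than Lingo4 had enough counts to be tested, and Lingo2 had none in any group. Of 12 genes of the LINGO family and the Nogo receptor complex 4 were tested, of which 1 was higher and 1 lower against NKT1 in WT (13.5% and 11.2% of all tested genes) and 2 higher and 1 lower against NKT2 (11% and 8.97%). The higher calls against NKT2, of Rtn4 and Rtn4rl1, failed in 4 and 5 of 14 alternatives. Rtn4rl1, a Nogo receptor-like gene, rose in SKG NKT17 from 6.706 ± 2.09 to 24.55 ± 1.64 CPM (SD, n = 3, log2 1.86, edgeR adjusted p 0.00378). It was the call of the list there, 1 higher of 4 tested, against 3.83% of all tested genes. It was also higher in SKG NKT2, at 8.369, 16.45 and 13.01 CPM against 2.861, 1.398 and 4.688 CPM in WT NKT2. In NKT1 its genotypes overlapped.

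Cpe works in a series of enzymes that cut and trim prohormones, and of 24 genes of that series and of other carboxypeptidases 9 were tested. In WT NKT17, 4 were higher and 3 lower than in NKT1 (13.5% and 11.2% of all tested genes), and 4 were higher and 1 lower than in NKT2 (11% and 8.97%). Among these calls Aebp1 against NKT1 failed in 6 of 12 alternatives and Pcsk1 against NKT2 in 4 of 14. Cpd, a carboxypeptidase of the same trimming step, was higher against both (log2 2.61 and 3.90) and stood at 13.1 ± 1.344 CPM in WT and 28.13 ± 5.098 CPM in SKG NKT17 (SD, n = 3), a difference that was not called (1.10, edgeR adjusted p 0.309).

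Pcsk1, the prohormone convertase that cuts before Cpe trims, was at 47.63, 33.56 and 42.68 CPM in WT NKT17 and at 32.91, 11.18 and 15.36 CPM in WT NKT2, and had no count in WT NKT1. It fell in SKG NKT17 to 7.933, 7.677 and 5.443 CPM (log2 -2.55, edgeR adjusted p 0.000154), in the same cells in which Cpe was not lower, and in SKG NKT2 to 2.423, 1.175 and 1.927 CPM (-3.41, 2.67e-05). Furin, a convertase of wide distribution, rose in SKG NKT17 from 32.39 ± 12.76 to 61.82 ± 1.47 CPM (SD, n = 3, 0.92, edgeR adjusted p 0.00493). In NKT1 it went the other way, with 90.31, 92.99 and 90.16 CPM in WT and 20.99, 21.25 and 20.1 CPM in SKG. In NKT2 its genotypes overlapped. Scg5, a chaperone of convertases, rose in SKG NKT17 by 0.67 (edgeR adjusted p 0.00738). Without WT replicate 1 its change was 0.56, under the fold-change minimum. Furin and Scg5 were the higher calls and Pcsk1 the lower call of the 9 tested genes (3.83% and 4.54% of all tested genes). The list had a median of 0.45, against 0.005 over all tested genes.

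The genes whose level over the 18 libraries was most like each of the 4 were found by Pearson's r of log2 CPM (prior count 2), as a description that mostly reflects the shared gap between NKT17 and the rest. For Sdc1 they were Abi3bp (0.99), Il17re, Cd36, Cdh10 and Mycn. For Dkk3 they were Kcnk1 (0.9946), Cdh10, Nxnl2, Cd36 and Igsf11. For Lingo4 they were Il23r (0.9886), Gm15987, 1300014I06Rik, Rhobtb1 and Cpe, and for Cpe they were Zp1 (0.9942), Ltb4r1, Zbtb7c and Slc9a2.

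Of the gene nearest to each member, those of Dkk3 and Cpe had the member's sign of change in SKG NKT17, where Kcnk1, a potassium channel, fell by 1.44 on the log2 scale (edgeR adjusted p 0.000646) and Zp1 rose by 0.85 (0.025). Il23r, nearest to Lingo4, had the opposite sign, -0.89 (0.000314) against 0.63 for Lingo4, and Abi3bp, nearest to Sdc1, was at -0.08 (0.931). Those 18 libraries hold the 6 that set these changes, so the likeness includes them.

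The 6 NKT17 markers of the list were all higher in WT NKT17 than in both other subsets, with median log2 fold changes of 10.45 and 8.79. Over all tested genes 13.5% were higher against NKT1 and 11% against NKT2. In SKG NKT17 their summed level was 2016 to 2271 CPM, against 3109 to 3288 CPM in WT. Il23r fell from 454.1 to 244.5 CPM (log2 -0.89, edgeR adjusted p 0.000314) and Blk, a Src-family kinase, from 2002 to 827.6 CPM (-1.27, 0.00118), while Ccr6, a chemokine receptor, rose from 12.05 to 592.3 CPM (5.62, 5.32e-06). Il1r1 (-1.0, 0.0727) and Il17a (-2.27, 0.0939) were also called, but Il1r1 lost its call in each fit without 1 NKT17 library (adjusted p 0.106 to 0.225) and Il17a in all but the one without WT replicate 2 (0.151 to 0.335). Il17re was not called (0.18, 0.735). Of the 6 markers 1 was thus called higher and 4 lower, against 3.83% and 4.54% of all tested genes.

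Markers of other cells moved in part with the genotype in NKT17 libraries. Tnfrsf17, which defines plasma cells, had no count in any NKT17 library, and the 6 plasma cell markers in the table summed to 353.4 to 533.0 CPM in WT and 289.8 to 386.7 CPM in SKG, mostly Xbp1. The one call among the plasma cell markers between genotypes was Prdm1, a transcription factor of plasma cells and of T cells. It was higher in SKG NKT17 (3.737 ± 2.073 against 12.83 ± 3.054 CPM, SD, n = 3, log2 1.79, edgeR adjusted p 0.0362). That call was lost without WT replicate 1 (1.76, 0.115), SKG replicate 1 (1.59, 0.144) or WT replicate 3 (1.45, 0.145). In WT, of the 5 tested, Derl3 and Irf4 were called higher and Prdm1 lower in NKT17 than in NKT1 (13.5% and 11.2% of all tested genes). Against NKT2, Xbp1 and Prdm1 were called higher (11% of all tested genes). Among these WT calls Irf4 failed in 6 of 14 alternatives and the others in 0. The 5 B cell markers summed to 7.823 to 11.13 CPM in WT and 24.77 to 40.73 CPM in SKG, nearly all Cd79b (log2 1.91, edgeR adjusted p 0.00264), with Pax5 at 0 in both. Cd79b, the 1 that was tested, was also called higher in WT NKT17 than in NKT1 and NKT2 (log2 2.47 and 6.03). Those calls failed in 0 of 14 alternatives. The 6 double-positive thymocyte markers summed to 5.271 to 12.52 and 14.31 to 47.45 CPM, with Rag1, Rag2 and Dntt at 0. Of the 2 that were tested, Cd8b1 was called higher in SKG NKT17, a call that failed in 7 of 12 alternatives. In WT, Cd8b1 was also called higher in NKT17 than in NKT1 (failed in 3 of 13) and NKT2 (1 of 13). The 10 thymic epithelial markers summed to 10.43 to 19.9 and 5.06 to 9.066 CPM, with Foxn1 and Krt14 at 0, the 7 fibroblast markers to 1.757 to 3.568 and 1.396 to 3.683 CPM, with Pdgfra at 0, and the 6 myeloid markers to at most 3.431 and 4.391 CPM, with Csf1r at 0. Epcam, a thymic epithelial marker, was called lower in SKG NKT17, which failed in 5 of 12 alternatives. In WT it was called higher in NKT17 than in NKT1 (failed in 4 of 13) and NKT2 (0 of 13). Col1a1, a fibroblast marker, was called higher in WT NKT17 than in NKT1 (failed in 3 of 13). The part of such other cells in the values of Dkk3, Lingo4 and Cpe was not tested.

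Summed, the NKT1 markers set NKT1 libraries apart in both genotypes, with 4550 to 5162 CPM in WT NKT1 and 3752 to 4152 CPM in SKG NKT1. The other groups held at most 423.5 CPM. The summed NKT17 markers did the same for NKT17, as no other group exceeded 11.85 CPM. Of the 6 NKT1 markers, 5 were called lower in WT NKT17 than in NKT1 (11.2% of all tested genes), all but Klrb1c. Against NKT2, 4 were called lower and Klrb1c higher (8.97% and 11%), in each of 14 alternatives. In SKG NKT17, Klrd1 was called higher and Il2rb lower (3.83% and 4.54%). The call of Klrd1 there failed in 4 of 12 alternatives. The summed NKT2 markers overlapped between NKT2 and NKT17 cells in SKG, at 1499 to 1906 and 1668 to 1801 CPM. Il13 had no count in SKG NKT17 but was counted in SKG NKT2, and the single markers were not tested between these groups. In WT the NKT2 markers summed to 1910 to 2201 CPM in NKT2 and 1495 to 1628 CPM in NKT17. Of the 6 only Il4 and Il13 were called, both lower in NKT17 (8.97% of all tested genes). The other sort markers, Itga1 (CD49a), Icos and Cd4, were not called between genotypes in NKT17 cells. Zap70 was at 789.4 CPM in WT and 527.0 CPM in SKG NKT17 (log2 -0.58, edgeR adjusted p 0.00174), short of the fold-change minimum, and the counts do not show the point mutation.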

How the data were processed

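The authors deposited raw counts of single-end reads per gene symbol, not normalised. Per the methods of the study, cDNA of poly-A RNA was amplified by an adapted Smart-seq2 protocol and tagged with Tn5, reads that matched tRNA, rRNA, spike-ins or adapters were set aside, the others were aligned to mm9 with TopHat 1.4.1, low-complexity reads were dropped and htseq-count was run in union mode; the submitters' processing notes list HTSeq 0.7.1, Bowtie 1.0.0 and mm10 instead of mm9. Positions here are NCBIM37 (mm9), joined by symbol. The annotation and strand setting of the counting are not given in the sources used here.

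The 18 libraries held 4391029 to 8895917 counts, and 2 columns of no listed sample were not used. Libraries of a group differed by more than sampling noise and are kept as 3 replicates; the series names 3 independent experiments, but the labels do not tie a library to an animal, so p-values measure the spread between libraries. Genes passing filterByExpr (11118, all 4 members among them) were scaled by TMM and fitted with edgeR 4.0.16 in R 4.3.3 (robust quasi-likelihood, 6 groups, two-sided tests, Benjamini-Hochberg); the pipeline was tested on simulated data. Exact permutation tests used log2 CPM and scipy 1.17.1. Alternatives were DESeq2 1.42.0, RLE and upper-quartile scaling, other filters and thresholds, only the libraries compared, a block on the title token, and each library left out. Same-token libraries of NKT17 and NKT2 cells in WT deviated from their group means together (correlations of 0.219 to 0.351 over 3 pairs, where all exceeded 0.1, against -0.229 to 0.0328 for the other pairs), which pairs them; those of NKT17 in WT and SKG (2 pairs, 0.00738 and 0.09) and of NKT17 and NKT1 in WT (-0.00718 to 0.192) did not. Values of NKT1, NKT2 and list genes under these alternatives were added after seeing the data.

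The text names the 4 members, Zap70, the 5 genes most like each member by Pearson's r, the 10 genes of highest NKT17 ratio, the 3 nearest protein-coding genes on each side, and genes of lists for related families and cell types. The GC box was added after the sequence was seen. Some genes that these rules select are not reported here. The members and lists were chosen with earlier results of these data known.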

Additional observations from a re-analysis of the deposited data

How the results depend on the processing

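Across the 13 alternatives tried for each of the 4 genes in SKG against WT NKT17 cells, no called value changed direction. Sdc1 was not called under any, with log2 fold changes of -0.05 to 0.01. Dkk3 ran from -1.42 to -0.87 with adjusted p-values of 0.00548 to 0.175, and its fits without 1 library gave -1.24 to -0.87. Cpe was called with DESeq2 (0.64, adjusted p 0.0995) and with only the 6 libraries in the edgeR fit (0.64, 0.0498), and without 1 library it ran from 0.47 to 0.89. Lingo4 was called with only the 6 libraries (0.62, 0.0483). The count of genes called between genotypes in NKT17 cells was 1398 with no fold-change minimum, against 931, and that in NKT1 cells was 207 with only the 6 libraries, against 364. The cause of these shifts was not tested, except that dropping the minimum can only add genes. With a replicate block by the title token, Dkk3 was at -1.42 (adjusted p 0.0347), Cpe at 0.39 (0.461), Lingo4 at 0.66 (0.344) and Sdc1 at 0.01 (0.989), and no call of the 4 changed. Between genotypes the token was not taken as a pairing. Libraries of NKT17 and NKT2 in WT were paired by it, and blocks by genotype and token, added after seeing the data, gave 2330 genes called there, against 2223, and changed 1 call among the list genes, that of Itgav; against NKT1 they gave 2816, against 2748. Over its 8 alternatives the ratio of NKT17 to the highest other group moved by less than its SD over the 6 NKT17 libraries (25.5 for Sdc1, 63.9 for Cpe, 36.2 for Lingo4 and 46.7 for Dkk3), and that of Dkk3 ran from 91.8 to 118.0, on both sides of 100. This is a weak check, since that SD spans both genotypes and no alternative left out an NKT1 or NKT2 library. For Cpe, Lingo4 and Dkk3 the denominator was the floor. Depth limits the members outside NKT17 cells, where counts per library were 7 or fewer.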
